A study of Mus musculus with 12 samples.

Results

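The Ugt1a locus on mouse chromosome 1 was examined gene by gene in livers of mice given BIBB-515, an inhibitor of lanosterol synthase (Lss). The members were the 8 genes of the count tables named Ugt1a1, Ugt1a2, Ugt1a5, Ugt1a6a, Ugt1a6b, Ugt1a7c, Ugt1a9 and Ugt1a10, out of 24062 genes in all. They were chosen by name, together with their 8 first exons among 222527 exons in the tables, where an exon of several genes counts once for each. Liver RNA was sequenced from 12 female C57BL/6J mice, 6 per diet. All of them were bought at 6 weeks of age, acclimated for 2 weeks and moved to the control diet 3 days before the experiment. Control mice stayed on that diet, while BIBB-515 mice received the matched diet that delivered the compound at 55 mg/kg for 10 days. The mice were wild type, with no allele or transgene added, and each library came from 1 mouse. The counted reads assigned to genes ranged from 22764819 to 27914647 in control libraries and from 24223939 to 31058370 in BIBB-515 libraries.

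UDP-glucuronosyltransferases join glucuronic acid to bilirubin, hormones, phenols and drugs, which makes them soluble enough to leave in bile or urine. The Ugt1a genes share their last exons. Each member starts at a promoter and a first exon of its own, which encodes the part of the enzyme that binds the substrate, and is spliced to the same exons 2 to 5, which encode the part that binds UDP-glucuronic acid. In liver the locus is best known for bilirubin conjugation by Ugt1a1 and for its induction by the xenobiotic receptors CAR, PXR and AhR.

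In the tables' mm10 annotation the locus spans chr1:88055411-88220002 on the plus strand. From the 5′ end the first exons run Ugt1a10, Ugt1a9, Ugt1a7c, Ugt1a6b, Ugt1a6a, Ugt1a5, Ugt1a2 and Ugt1a1. The first exon of Ugt1a10 ends 158707 bases before the shared exon 2, and that of Ugt1a1 ends 2172 bases before it. The shared exons are chr1:88215044-88215175, chr1:88215795-88215882, chr1:88216138-88216357 and chr1:88218127-88220002, the last of which holds the end of the coding sequence. Ugt1a6a and Ugt1a6b each have a further short exon upstream, and for them the first exon here means the longer one spliced to exon 2. The first exon of Ugt1a8, which GENCODE M21 places between those of Ugt1a9 and Ugt1a7c, was not analysed here.

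The sequences below show what a read at the junction can and cannot tell. Each is the plus strand of the spliced transcript in GENCODE M21 (mm10), with the last 15 bases of the first exon in capitals and the first 15 bases of the shared exon 2 in lower case.
Ugt1a10: AAGCCACTTTCCAAGgaatttgaagcctat
Ugt1a9: AAGTCACTTTCCAAGgaatttgaagcctat
Ugt1a7c: AAGCCACTTTCCAAGgaatttgaagcctat
Ugt1a6b: GGAAAGCTGACTCAGgaatttgaagcctat
Ugt1a6a: GGAAAGCTGACTCAGgaatttgaagcctat
Ugt1a5: AAGCCCCTCTCTCAGgaatttgaagcctat
Ugt1a2: AAGCCCCTCTCTCAGgaatttgaagcctat
Ugt1a1: AAGCCCCTATCCCAGgaatttgaagcctat
The lower-case end was the same in all 8. The capital ends of Ugt1a6a and Ugt1a6b were identical, as were those of Ugt1a5 and Ugt1a2 and those of Ugt1a10 and Ugt1a7c, whereas Ugt1a9 and Ugt1a1 each had an end of their own. Further upstream the identical stretch before the junction ran to 39 bases for Ugt1a6a and Ugt1a6b, to 116 bases for Ugt1a5 and Ugt1a2 and to 15 bases for Ugt1a10 and Ugt1a7c. Over the whole first exon Ugt1a6a and Ugt1a6b were 97.0% identical, Ugt1a9 and Ugt1a10 were 91.7% identical, and Ugt1a5 and Ugt1a2 were 80.9% identical. Of the 50-base words of Ugt1a6a, 47.4% also occurred in Ugt1a6b, against 7.95% of those of Ugt1a5 in Ugt1a2, 6.63% of those of Ugt1a9 in Ugt1a10 or Ugt1a7c and 0 of the 864 words of Ugt1a1 in any other member. How the authors' alignment split reads between Ugt1a6a and Ugt1a6b is therefore uncertain, and values for that pair carry this limit. Reads across the junction of Ugt1a5 or Ugt1a2 carry a like limit, given their 116 identical bases.

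Ugt1a9 and Ugt1a1 rose with BIBB-515, and the other members that could be tested did not pass the test. The first exons of 5 members, Ugt1a9, Ugt1a6b, Ugt1a6a, Ugt1a5 and Ugt1a1, reached 1 CPM in 2 or more of the 12 mice. CPM means counts per 1000000 counts of the same table, which for exons are counts over exon rows rather than reads. All 5 were tested. Of these 5 first exons 2 were higher, where 3.38% of the 70564 exons tested were higher at an adjusted p below 0.05. Counted over genes in the gene table, in which a read that touches exons of several genes is dropped, Ugt1a9 and Ugt1a1 were again the 2 of 5 members called higher, against 7.18% of 12481 genes, and 13.7% of genes were called in either direction and 6.48% lower. In the same fit 29.7% of genes had an unadjusted p under 0.05. In these bulk libraries more RNA per cell and more cells of a type cannot be told apart.

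Ugt1a9, whose enzyme conjugates bulky phenols, had the larger change. Its first exon (chr1:88070779-88071678) stood at 5.26 CPM in the lowest control mouse, 8.63 at the median and 14.0 in the highest. The BIBB-515 mice ran from 34.2 through a median of 45.3 to 52.5 CPM. All 6 BIBB-515 mice thus lay above every control mouse, a pattern that 2.69% of tested exons showed in this direction. The log2 fold change was 2.33 with a standard error (SE) of 0.19, which is 5.01-fold (adjusted p = 6.26e-07 by edgeR's quasi-likelihood test with Benjamini-Hochberg adjustment). In the gene table Ugt1a9 had the log2 fold change ranked 23 of 12481, at 2.34 (SE 0.21, adjusted p = 6.00e-06 in edgeR), and 4.35% of genes were higher without overlap there.

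Ugt1a1, the enzyme that conjugates bilirubin, had the highest median of the members in both diets. Its first exon (chr1:88211959-88212871) had 80.9 CPM in the lowest control mouse, a median of 122 and 159 in the highest. With BIBB-515 the lowest, median and highest values were 191, 221 and 262 CPM. The groups did not overlap here either. The log2 fold change was 0.89 (SE 0.14), which is 1.86-fold, with an adjusted p of 6.40e-04 in the edgeR fit. In the gene table the value was 0.93 (SE 0.15, adjusted p = 0.00136 in edgeR). GENCODE M21 has an antisense gene, Gm20528, over 528 bases of this exon and over parts of exon 5 and of the Ugt1a10 first exon. The counting took no account of strand, so reads of that gene cannot be told apart from those of Ugt1a1 here.

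Ugt1a6a and Ugt1a6b, whose enzymes conjugate small planar phenols, sat close to their control levels. The Ugt1a6a first exon (chr1:88138473-88139331) ranged from 14.7 through 16.2 to 18.9 CPM on control diet and from 17.3 through 18.2 to 21.0 CPM with BIBB-515. Each of the 6 BIBB-515 values exceeded the mean on control diet, but the ranges overlapped, and the log2 fold change of 0.19 (SE 0.09) had an adjusted p of 0.216 in the edgeR fit. On this single value the two-sided exact permutation test over all divisions of the mice into groups of 6 gave p = 0.0152, unadjusted. The Ugt1a6b first exon (chr1:88106941-88107799) went from 13.8 through 16.2 to 19.5 CPM in control mice and from 14.2 through 15.2 to 18.3 CPM in BIBB-515 mice. Those ranges lay almost on top of each other, with a log2 fold change of -0.06 (SE 0.10, adjusted p = 0.793 in edgeR).

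By first-exon reads, Ugt1a5 was the member next in abundance to Ugt1a1 on control diet. Reads that join a first exon to a shared exon, described below, gave another order. Of these, Ugt1a5 held a control mean of 0.422%, against 11.5% for Ugt1a6b, 11.2% for Ugt1a6a and 5.59% for Ugt1a9. Which measure reflects its mRNA was not tested. Its first exon (chr1:88166012-88166903) had 59.7 CPM in the lowest control mouse, 82.2 at the median and 119 in the highest, and 80.2, 94.6 and 121 CPM in the BIBB-515 mice. The ranges overlapped widely, and the log2 fold change of 0.20 (SE 0.15) had an adjusted p of 0.504 in edgeR.

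The other 3 members had a handful of reads per liver. The first exon of Ugt1a10 (chr1:88055411-88056336), which in people is known from the gut, held 3 to 20 reads in control libraries and 12 to 22 in BIBB-515 libraries. That of Ugt1a7c (chr1:88095001-88095978) held 0 to 4 and 2 to 7 reads. That of Ugt1a2 (chr1:88200611-88201500) held 0 to 12 and 2 to 4 reads. Without the filter on low counts, their adjusted p-values in the edgeR exon fit were 0.602, 0.393 and 0.439. A count of 3 corresponds to at most 0.140 CPM in the gene table, so levels of this size were barely detectable at this depth.

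**Figure D1:**
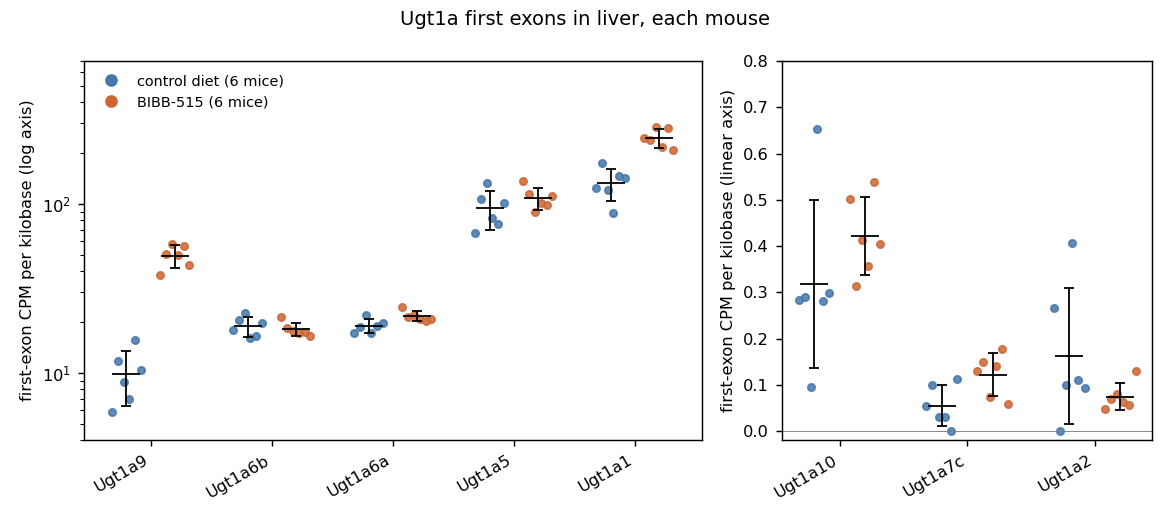
First-exon reads of each Ugt1a gene in CPM per kilobase, 1 point per mouse, with bars at the mean and error bars of 1 SD over 6 mice; the left panel has a log axis and the right panel a linear axis for the 3 members with few reads. Ugt1a9 separates completely between the diets, from 5.84 to 15.6 on control diet and from 38.0 to 58.3 with BIBB-515, and so does Ugt1a1, while the points of the other members overlap.

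Per kilobase of first exon, the control medians fell in the order Ugt1a1 (133 CPM per kilobase), Ugt1a5 (92.2), Ugt1a6b (18.8), Ugt1a6a (18.8), Ugt1a9 (9.59), Ugt1a10 (0.287), Ugt1a2 (0.105) and Ugt1a7c (0.0423). The ranges of Ugt1a1 and Ugt1a5 overlapped on control diet, where Ugt1a5 reads reached 1.08 times those of Ugt1a1 in the highest mouse. Those of Ugt1a6b and Ugt1a6a overlapped too, as did those of the 3 members with few reads. With BIBB-515 the medians were 242 for Ugt1a1, 106 for Ugt1a5, 50.4 for Ugt1a9, 21.2 for Ugt1a6a and 17.6 for Ugt1a6b. In that order Ugt1a9 stood above both Ugt1a6 genes, and its lowest value of 38.0 exceeded the highest Ugt1a6a value of 24.4. Whether reads that match both Ugt1a6 genes were lost from the levels of that pair was not tested.

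The members differed from each other in their response. Ratios of first-exon reads within a mouse, which need no library scaling, were compared between diets for the 10 pairs of the 5 tested members, with two-sided exact permutation p-values that are unadjusted. Ugt1a9 gained on each of the other 4, and all those ratios were without overlap. The ratio of Ugt1a9 to Ugt1a1 was 0.0463, 0.0718 and 0.105 at the lowest, median and highest control mouse, and 0.152, 0.203 and 0.227 with BIBB-515. The difference was 1.47 on the log2 scale, with an exact permutation p of 0.00216, the smallest that 6 against 6 mice allow. Ugt1a1 in turn gained on Ugt1a6b by 0.97 and on Ugt1a6a by 0.72 on the log2 scale, as the differences of the inverse ratios were -0.97 and -0.72, both at the same smallest exact p. Against Ugt1a5 the inverse ratio differed by -0.69 with overlapping ranges (exact permutation p = 0.0108). Ugt1a6a and Ugt1a5 kept ratios of 0.159 to 0.247 on control diet and 0.173 to 0.236 with BIBB-515, a difference of -0.03 on the log2 scale (exact permutation p = 0.816).

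The near-identical pair also separated. The ratio of Ugt1a6b to Ugt1a6a first-exon reads was 0.878 in the lowest control mouse, 1.02 at the median and 1.10 in the highest. With BIBB-515 it was 0.795, 0.842 and 0.874. All 6 BIBB-515 mice lay below every control mouse, although neither gene passed the test by itself, and the difference was -0.25 on the log2 scale (exact permutation p = 0.00216). The part of reads placed wrongly between these 2 genes in this ratio was not tested.

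Counted with shared reads, the whole locus looked alike. In the primary-alignment table a read on exons of several genes is counted once for each of them. There all 8 members were higher with BIBB-515 at an adjusted p below 0.05 in edgeR, where 7.65% of 12881 genes were. Their log2 fold changes lay between 0.57 for Ugt1a5 and 0.67 for Ugt1a1. Ugt1a9 dropped from 2.34 in the gene table to 0.66, while Ugt1a6b moved from -0.03 to 0.60 and Ugt1a6a from 0.22 to 0.61. Ugt1a10, Ugt1a7c and Ugt1a2, which had 0 to 12 reads of their own per mouse, were listed with 18345 to 41957 reads and a log2 fold change of 0.62. These 8 values come mostly from the same reads and are not independent of each other.

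Shared reads made up most of each member's primary count. For Ugt1a10 their share was 99.965% in the lowest of the 12 mice. For Ugt1a9 it was 98.0% to 99.2% on control diet and 95.2% to 96.7% with BIBB-515. For Ugt1a1, the most abundant member, it was still 79.4% to 90.6% over the 12 mice. Conversely, the gene table dropped the reads on shared exons, which were 68.7% to 79.7% of all reads of the locus per mouse. Among all genes such a gap between tables was uncommon, as 192 of 12442 genes tested in both (1.54%) differed by more than 0.1 in log2 fold change and 13 by more than 0.5.

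**Figure D2:**
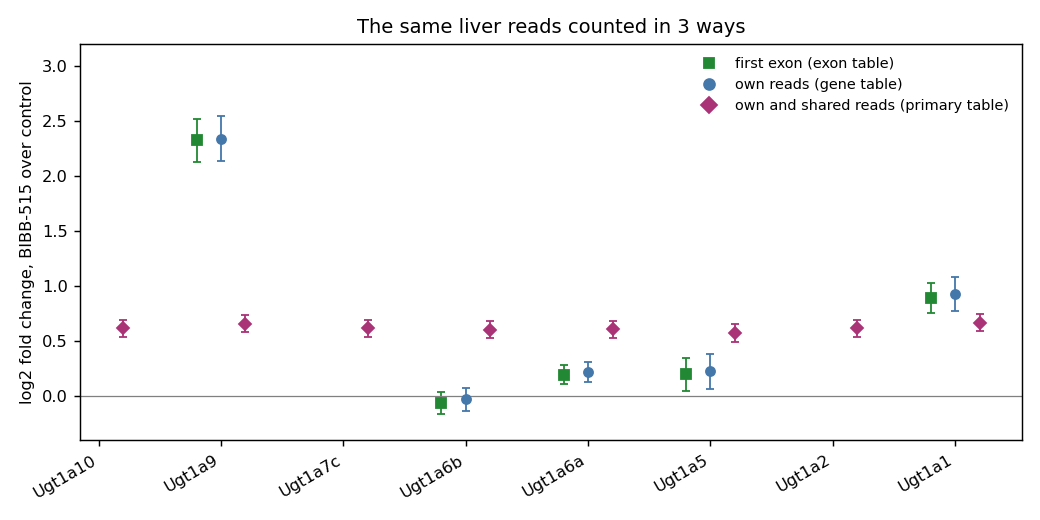
Log2 fold change of BIBB-515 over control with its standard error for each Ugt1a gene in genome order, from first-exon counts, from the gene table without shared reads and from the primary table with them; Ugt1a10, Ugt1a7c and Ugt1a2 were tested in the primary table alone. The primary values form a row between 0.57 and 0.67 whatever the first exon did, from -0.06 for Ugt1a6b to 2.33 for Ugt1a9.

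The shared exons gave the level of the locus as a whole. Exon 2 had 44.5, 56.9 and 62.2 CPM in the lowest, median and highest control mouse and 81.1, 87.0 and 94.4 CPM with BIBB-515. Its log2 fold change was 0.68 (SE 0.09, adjusted p = 1.96e-04 in edgeR). Exons 3, 4 and 5 had log2 fold changes of 0.58, 0.58 and 0.57, each below an adjusted p of 0.05 in edgeR and without overlap. The summed first exons were higher too, from 190 to 299 CPM on control diet to 362 to 430 CPM with BIBB-515. The mean of this sum went from 248 to 402 CPM. With Ugt1a5 left out it went from 163 to 305 CPM, so the size of the change depended on that member. The library of control mouse 4 stood apart in its coverage along the transcript, with 11.3 times as many reads on exon 5 as on exon 2, against 7.42 to 9.20 times in the other mice. In the same library the last exon stood highest over the first across 1870 other genes, with a median log2 density ratio of 1.82, against 1.03 to 1.58 elsewhere. Between diets the exon 5 to exon 2 ratio had an exact permutation p of 0.279. With control mouse 4 left out, the first-exon log2 fold change was 2.24 for Ugt1a9 and 0.79 for Ugt1a1 (adjusted p = 1.99e-06 and 5.06e-04 in edgeR), and the other 3 still did not pass.

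A read that touches a member's own exon and a shared exon in one piece ties that first exon to the common part of the transcript. Such joined reads were obtained as the reads on a member's own exon rows less its gene-table count. Over the 12 mice, 8255 of 82310 first-exon reads of Ugt1a1 were joined, which is 10.0%. The share was 12.0% for Ugt1a9, 12.0% for Ugt1a6b and 11.7% for Ugt1a6a. For Ugt1a5 it was 46 of 42257 reads, or 0.109%, with an exact 95% binomial interval of 0.0797% to 0.145% that covers counting error only. Ugt1a5 thus stood far below the other 4 in every mouse, at 0.175% or less, where none of the others was below 8.96%. The first exons of these 5 members are close in length, at 859 to 913 bases. The last 116 bases before the junction are the same in Ugt1a5 and Ugt1a2, against 39 in the Ugt1a6 pair. Whether joined reads of Ugt1a5 were lost or misplaced for that reason was not tested. Ugt1a10 had 89 joined reads of 159 (56.0%, exact 95% binomial interval 47.9% to 63.8%), Ugt1a7c 3 of 42 and Ugt1a2 1 of 46. The end of the Ugt1a10 first exon matches that of Ugt1a7c over 15 bases and that of Ugt1a9 over 11. Whether reads of other members were placed on Ugt1a10 was not tested, and its first-exon level carries this limit.

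**Figure D3:**
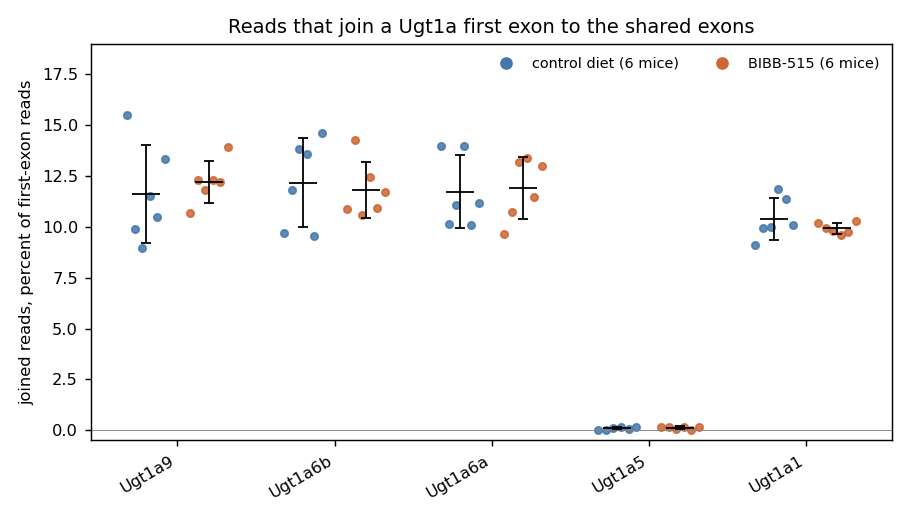
Joined reads as a percent of first-exon reads for the 5 tested Ugt1a genes, 1 point per mouse, with the mean and 1 SD over 6 mice. The points of 4 genes lie between 8.96% and 15.5% in both diets, and those of Ugt1a5 lie between 0 and 0.175%.

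For Ugt1a9, Ugt1a1, Ugt1a6a and Ugt1a6b the joined reads gave the same order of responses as the first exons. Joined reads are a part of the same first-exon reads and so are not a separate measure. Ugt1a9 had 24 to 45 joined reads in control mice and 173 to 269 with BIBB-515, a difference of 2.51 in log2 CPM (exact permutation p = 0.00216). Ugt1a1 had 318 to 650 and 682 to 1089 joined reads, and the difference in log2 CPM was 0.89 (exact permutation p = 0.00216). For Ugt1a6a the difference was 0.25 (exact permutation p = 0.0195, ranges of CPM overlapping), and for Ugt1a6b it was -0.06 (exact permutation p = 0.768). The joined share itself did not separate the diets for any of these 4 genes, with exact permutation p-values of 0.335 to 0.885. Of the reads on exon 2, those joined to any of the 8 first exons made up 29.5% to 34.7% on control diet and 34.3% to 38.9% with BIBB-515 (exact permutation p = 0.00433). Reads joined to Ugt1a9 held 1.25% to 2.57% of exon 2 reads on control diet and 4.17% to 6.87% with BIBB-515.

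The makeup of the locus shifted towards Ugt1a9. Of all first-exon reads of the 8 members, Ugt1a9 held 2.51%, 3.41% and 5.70% in the lowest, median and highest control mouse and 8.12%, 11.6% and 12.3% with BIBB-515. The mean difference was 7.54 percentage points (exact permutation p = 0.00216, 1 of 8 unadjusted tests of shares). Ugt1a6b went from a median of 6.74% to 3.96% and Ugt1a6a from 6.73% to 4.76%, both without overlap and with the same p, while their levels in CPM did not pass the test. The share of Ugt1a5 went from a median of 33.1% (27.7% to 43.1%) to 25.1% (18.7% to 28.8%), with an exact permutation p of 0.00649. Among joined reads, of which Ugt1a5 had few, its share differed by -0.0223 points (exact permutation p = 0.918). Ugt1a1 held 51.2% at the control median, ranging from 40.0% to 54.3%, and 54.2% with BIBB-515, ranging from 52.8% to 61.0%. Its mean difference of 7.07 points (exact permutation p = 0.0455) depended on the denominator, being -0.0495 points with Ugt1a5 left out and -0.900 points among joined reads (exact permutation p = 0.974 and 0.703). It also lost the 0.05 threshold when any of control mice 3, 4 and 6 or BIBB-515 mice 6 to 10 was left out, with exact permutation p-values of 0.0519 to 0.0909. The shares of Ugt1a10, Ugt1a7c and Ugt1a2 were at most 0.318% in each mouse.

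**Figure D4:**
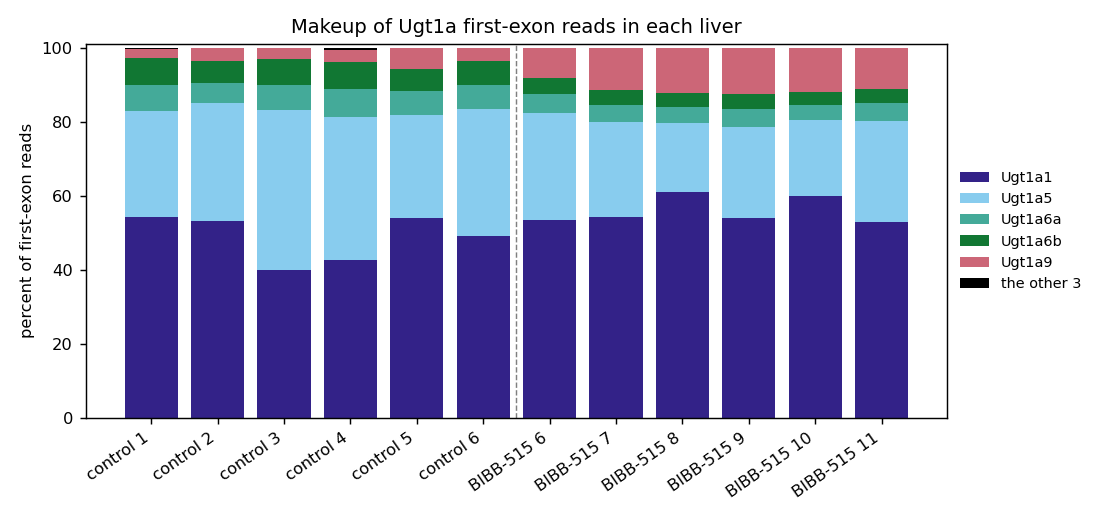
Percent of the first-exon reads of the 8 Ugt1a genes held by each gene in each of the 12 livers, with the 6 control mice left of the dashed line. The Ugt1a9 segment covers 2.51% to 5.70% in control mice and 8.12% to 12.3% in BIBB-515 mice, and Ugt1a1 and Ugt1a5 make up most of every bar.

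The promoters of the members that rose are shown beside that of Ugt1a10, the closest relative of Ugt1a9. Each run holds the 250 bases before the start of the gene on the plus strand of GRCm38.p6, from RefSeq, which had an entry for 7 of the 8 members, all but Ugt1a6b. They are chr1:88070529-88070778 for Ugt1a9, chr1:88055161-88055410 for Ugt1a10 and chr1:88211709-88211958 for Ugt1a1. Capitals mark matches, on either strand, to 4 short motifs that were searched by their letters: AGGTCA, the hexamer bound by many nuclear receptors, GCGTG, the core bound by AhR, TGACNNNGC, the core of the antioxidant element, and GTTAAT, part of the HNF1 site.
Ugt1a9: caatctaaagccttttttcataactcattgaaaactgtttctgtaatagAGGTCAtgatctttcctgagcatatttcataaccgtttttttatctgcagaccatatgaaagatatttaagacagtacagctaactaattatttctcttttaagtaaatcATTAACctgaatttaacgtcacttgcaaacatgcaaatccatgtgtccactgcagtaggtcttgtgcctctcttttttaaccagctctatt
Ugt1a10: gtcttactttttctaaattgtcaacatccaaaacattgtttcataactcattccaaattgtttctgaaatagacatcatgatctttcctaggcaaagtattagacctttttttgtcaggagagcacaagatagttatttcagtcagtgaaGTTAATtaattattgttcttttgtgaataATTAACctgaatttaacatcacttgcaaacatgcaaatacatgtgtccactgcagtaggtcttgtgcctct
Ugt1a1: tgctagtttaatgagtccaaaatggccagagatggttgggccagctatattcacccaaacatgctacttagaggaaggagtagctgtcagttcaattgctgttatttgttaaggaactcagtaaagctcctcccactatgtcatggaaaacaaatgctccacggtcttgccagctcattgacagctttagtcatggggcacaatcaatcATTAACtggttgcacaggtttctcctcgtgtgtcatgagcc
The Ugt1a9 and Ugt1a10 promoters were identical at 186 of 227 aligned bases (81.9%). Over the 7 promoters with an entry, AGGTCA had 1 match before Ugt1a9, 1 before Ugt1a7c, a member with few reads, and 0 before the other 5, and 14.0% of 32851 promoter windows of this length held it. GTTAAT had 1 match each before Ugt1a9, Ugt1a1 and Ugt1a6a, 2 before Ugt1a10 and 0 before the other 3, where 6.43% of windows held it. GCGTG, found in 28.2% of windows, had 1 match before Ugt1a5 alone, and TGACNNNGC, found in 10.2%, had no match in the 7. A match describes the letters of the window and was not tied to binding by any measurement here.

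The genes around the Ugt1a reaction are read here against the whole gene table, in which 7.18% of genes rose and 6.48% fell. The lists here and in the next 2 paragraphs were chosen with earlier results of these data known. Their counts are therefore descriptive and not an independent test. Of 7 genes that supply UDP-glucuronic acid, 1 was called, and it rose (14.3%, near the 13.7% of all genes called in either direction). The other 6 did not pass the test. The gene that rose was Ugdh, the dehydrogenase that makes this sugar nucleotide from UDP-glucose, which went from 51.4, 69.1 and 143 CPM (lowest, median and highest control mouse) to 256, 359 and 419 CPM. The groups did not overlap, and the log2 fold change was 2.11 (SE 0.23, adjusted p = 4.33e-05 in edgeR). The median log2 fold change of the list was 0.19, beside -0.01 over all tested genes. Of 10 tested glucuronosyltransferases outside the locus, 3 rose and 0 fell in the edgeR fit, against 7.18% and 6.48% of all genes, with a list median of 0.00425. DESeq2 and limma-voom likewise called 0 of them lower, and 5 had an unadjusted p under 0.05, as 29.7% of all genes had. The genes that rose were Ugt2b34 at a log2 fold change of 0.63 (SE 0.12), Ugt2b35 at 0.53 (SE 0.11) and Ugt2b36 at 0.33 (SE 0.06), all smaller than that of Ugt1a1.

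Among 3 enzymes that hydrolyse glucuronides or esters, 2 rose, where 7.18% of all genes did. Gusb, the lysosomal beta-glucuronidase, had a log2 fold change of 0.40 (SE 0.07), and Ces1g, a carboxylesterase, of 1.29 (SE 0.09). Of 14 genes from heme breakdown to bilirubin transport and binding, 7 rose and 1 fell, against 7.18% and 6.48% of all genes, with a median of 0.32. Gstm1, a glutathione transferase of a family that binds bilirubin in the cytosol, rose by 2.21 on the log2 scale (SE 0.17). Abcc3, which exports glucuronides to blood, rose by 1.70 (SE 0.18), Slco1a4, an uptake transporter of organic anions, by 1.44 (SE 0.22), and Gsta3 by 0.57 (SE 0.07). The gene that fell was Slco1a1, another uptake transporter, at -1.67 (SE 0.26), and it is named because its value was seen. Abcc2, which exports conjugated bilirubin to bile, had a log2 fold change of 0.28 (SE 0.11, adjusted p = 0.104 in edgeR), likewise named after its value was seen.

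**Figure D5:**
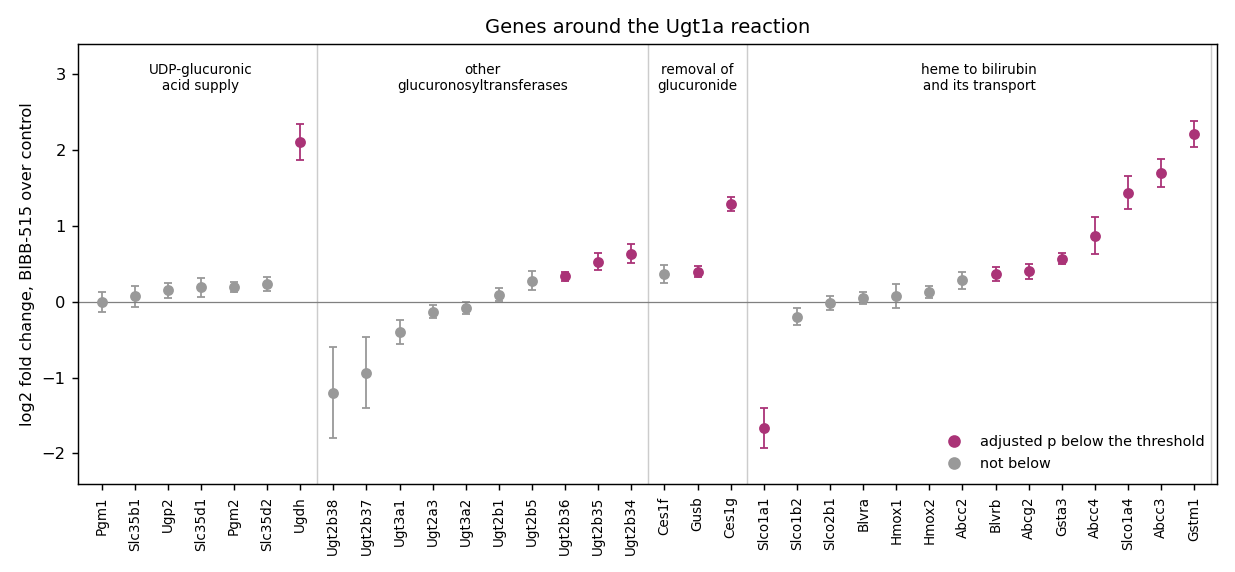
Log2 fold change of BIBB-515 over control with its standard error for the tested genes that supply UDP-glucuronic acid, other glucuronosyltransferases, enzymes that hydrolyse glucuronides or esters (headed removal of glucuronide), and genes from heme to bilirubin transport. The threshold for colour is an adjusted p of 0.05 in edgeR. Ugdh at 2.11 stands alone in its list, and Slco1a1 at -1.67 is the gene that fell.

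Of 12 receptors and factors known for Ugt1a genes, 0 passed the edgeR test in their mRNA, with a list median of -0.04. With 13.7% of all genes called, a count of 0 in a list of this length does not set it apart. At an unadjusted p under 0.05 there were 4, where 29.7% of all genes were, and DESeq2 called 1 and limma-voom 0. For the usual target genes of these receptors, the counts stand beside the 7.18% of all genes that rose and the 13.7% called in either direction, and the lists were not tested against each other. Of 8 CAR and PXR targets 7 rose (87.5%), with a median log2 fold change of 2.47. The first of these by p were Ces2a at 3.53 (SE 0.12), Cyp3a11 at 3.24 (SE 0.12) and Cyp2c55 at 5.98 (SE 0.26), followed by Abcc3, which is on both lists. Of 5 tested AhR targets 2 rose (40.0%), Cyp1a2 at 0.73 (SE 0.10) and Nqo1 at 0.74 (SE 0.16), with a list median of 0.37. The other 3, named after their values were seen, did not pass: Cyp1a1 at 0.37, Tiparp at -0.03 and Cyp1b1 at -0.002. Of 6 NRF2 targets 2 rose (33.3%), Nqo1 again and Srxn1 at 0.65 (SE 0.09), with a list median of 0.20. Of 6 PPARA targets 0 passed the edgeR test, with a median of -0.34, while 1 had an unadjusted p under 0.05 and DESeq2 and limma-voom called 0. These lists describe the livers, and a link from any receptor to a first exon was not tested.

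Across the 12 mice, the genes whose log2 CPM followed that of Ugt1a1 most closely were Gm10804 (Pearson r = 0.973), Abcc3 (0.965), Fbxw8 (0.964), Nmt2 (0.957) and Aldh4a1 (0.954). Within the locus r with Ugt1a1 was 0.919 for Ugt1a9, 0.729 for Ugt1a6a, 0.456 for Ugt1a5 and 0.274 for Ugt1a6b. After subtraction of each diet's mean, r was 0.649 for Ugt1a9, 0.621 for Ugt1a6b, 0.527 for Ugt1a6a and 0.222 for Ugt1a5. These values describe the same 12 libraries, which share their diets and their scaling.

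The tissue label was checked against marker genes. The 5 hepatocyte markers summed to 139005 to 156773 CPM in control mice and 105862 to 120340 CPM in BIBB-515 mice, without overlap, and 2 of them, Alb and Ttr, fell by 0.40 and by 0.49 on the log2 scale. The defining gut markers Cdx1, Cdx2 and Sis, the kidney marker Slc12a1, the pancreas markers Prss2 and Pnlip and the fat marker Lep were at 0 in every library. The lists for bile duct (0 of 4) and Kupffer cells (0 of 3 in the table) had no gene past the threshold in edgeR, DESeq2 or limma-voom and 0 with an unadjusted p under 0.05, with summed levels that overlapped between diets. Fabp2 of the gut list and Cela1 of the pancreas list fell, by 0.66 and by 0.56 on the log2 scale, and the summed gut list ran from 65.5 to 142 CPM in control mice and from 61.5 to 83.9 CPM with BIBB-515, almost all of it Fabp2. Both red cell markers were at 0 in every library, and whether their reads were dropped in alignment or counting was not tested. The part of these markers in the Ugt1a values was not tested.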

How the data were processed

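Liver RNA-seq of 6 control and 6 BIBB-515 mice was used, grouped by the labels. Per the file headers, the authors counted reads with featureCounts v1.6.3 against UCSC mm10 gene models without a strand option, and the submitters' processing notes name STAR 2.5.3a and Subread 1.6.3. The deposited values are raw counts per gene or exon. The gene table drops reads on several genes, the primary table counts each such read for every gene, and the exon table counts a read for every exon row it touches. Tables counted by transcript were not used, and no strand was available, so sense and antisense reads were counted together.

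Features that reached 1 CPM in 2 or more of the 12 mice entered a quasi-likelihood fit in edgeR 4.0.16 (TMM; R 4.3.3), with p-values adjusted over all tested features by the Benjamini-Hochberg method at 0.05. The CPM values use TMM-scaled library sizes of their own table, and those of joined reads use the sizes of the gene table. In the exon table a read can count in several rows, so exon CPM and gene-table CPM are not on the same scale. Each exon was tested once for every gene that holds it, so a shared Ugt1a exon entered once per member, with the same or nearly the same counts. These copies are among the 70564 exons behind the shares of 3.38% and 2.69%. Single values, ratios and shares were compared by two-sided exact permutation over all divisions of the mice into groups of 6 (SciPy 1.17.1). DESeq2 1.42.0, limma 3.58.1, upper-quartile scaling, other filters and leaving out each mouse were alternatives. Binomial intervals are exact (Clopper-Pearson, 95%). On simulated data, 200 genes with mean levels well above the filter were changed by 1 on the log2 scale. The gene fit recovered 96.5% of them over 12372 genes, with 3.50% of its calls false. Recovery of changed genes near the filter was not simulated.

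Joined reads may be over-counted by at most 82 reads in all for Ugt1a6a and 31 for Ugt1a6b, since a read across both of their own exons counts in each. Genes named were the 8 members, up to 4 called genes per list by lowest p, and the 5 genes most correlated with Ugt1a1. The members and lists were chosen with earlier results of these data known. Labels give 1 mouse per library and no batch, so p-values measure the spread between these mice. Per the paper several mice shared a cage, but the labels give no cage, so an effect of cage could not be examined. No 2 libraries of a diet agreed within sampling noise, with a chi-square per degree of freedom of at least 12.1.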

Additional observations from a re-analysis of the deposited data

Results flagged for a closer look

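Of 94 sets of 6 mice examined, 9 held a mouse whose gap to its nearest neighbour exceeded Dixon's 95% critical share of the group's range, where chance alone gives about 4.7. Control mouse 4 accounted for 4 of them. It was highest for the Ugt1a10 first exon, at 0.605 CPM against 0.277 in the next control mouse (gap 0.636 of the range), and for the Ugt1a10 share of first-exon reads, at 0.318% against 0.126% (gap 0.673), both from a handful of reads. It was also highest for the ratio of exon 5 to exon 2 reads (gap 0.744) and lowest for Fbxw8, at 39.5 CPM against 47.1 (gap 0.730).

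The Ugt1a9 share of first-exon reads had a far mouse in each diet. Control mouse 5 stood highest at 5.70% against 3.53% (gap 0.680), and BIBB-515 mouse 6 stood lowest at 8.12% against 10.9% (gap 0.665). Even these nearest mice of the 2 diets did not overlap.

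BIBB-515 mouse 11 was highest for the Ugt1a2 share, at 0.0319% against 0.0167% (gap 0.696). Control mouse 1 was lowest for shared exon 4, at 112 CPM against 137 (gap 0.646). Control mouse 2 was highest for Gusb, at 39.4 CPM against 30.6 (gap 0.832).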

How the results depend on the processing

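Over 25 results and 421 alternatives, 394 kept their direction and their side of the threshold. The calls of Ugt1a9 and Ugt1a1 held in every setting run, with first-exon log2 fold changes of 2.20 to 2.49 and 0.79 to 0.98 when a mouse was left out, but counting shared reads took Ugt1a9 in the gene table from 2.34 to 0.66. That table also brought Ugt1a6b (0.60, against -0.03), Ugt1a6a (0.61) and Ugt1a5 (0.57) past the threshold, by its construction from shared reads. With a mouse left out, Ugt1a6b in the gene table ranged from -0.088 to 0.043 and Ugt1a6a from 0.17 to 0.28. Ugt1a6a passed without control mouse 3 (adjusted p = 0.0385 in edgeR; 0.0385 to 0.229 over the mice left out). The count of glucuronidation genes called lower was 1 and ranged from 1 to 2, and genes called in all ranged from 1199 to 1865, against 1705, and were 2244 with DESeq2.

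Differences in share were less stable for Ugt1a1: 5.29 to 8.15 percentage points with a mouse left out (past the threshold in 4 of 12 settings), -0.900 among joined reads and -0.0495 without Ugt1a5. The last 2 settings were chosen after seeing the data. That of Ugt1a5 was -0.0223 among joined reads. That of Ugt1a2 was 0.0109 among joined reads, -0.0824 without Ugt1a5 and -0.0646 to -0.0265 with a mouse left out. That of Ugt1a10 was 0.00829 from the gene table and -0.0517 to 0.00539 with a mouse left out. Beyond these settings' own construction, the cause was not tested. No paired analysis was possible because the diets share only 1 replicate number. With 0 to 22 first-exon reads per mouse, depth limits what can be said of Ugt1a10, Ugt1a7c and Ugt1a2.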
